A study of Mus musculus with 4 samples.

Results

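Homologous recombination and the response to DNA damage were followed through 39 genes of the 24391 in the count table. They were chosen by symbol and not by a cut on their measured values, but with earlier results of these data known. They fall into 27 genes of recombination and the Fanconi anemia pathway, 4 kinases that signal DNA damage, 5 genes of end joining and 3 genes of mismatch repair. All 39 passed the filter on low counts and were tested.

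Beko is a mouse progenitor T-cell line, described in the labels as pre-T cells, in which Notch signaling is constitutively active. DAPT, the γ-secretase inhibitor (GSI), blocks the cleavage that releases the active Notch fragment. Both groups were Beko cells kept for 48 h in DAPT, which was renewed during that time. The labels give the dose as 10 mg/ml, whereas the study's methods give it in μg/ml. The 2 GSI libraries were taken at that point, and the 2 washout libraries were taken after the inhibitor had been washed away and the cells cultured for a further 24 h. No library of cells washed and cultured for 24 h without earlier inhibitor was analysed here, so the return of Notch activity, the wash and the longer culture cannot be told apart. All libraries come from 1 cell line, and nothing in the sources used here says that replicates were separate cultures. P-values therefore measure only the spread between these libraries, which may be technical.

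Homologous recombination repairs a broken chromosome by copying the intact sister. The broken ends are cut back to single strands, which are coated by RPA and then made ready to invade the sister with the help of BRCA1, PALB2 and BRCA2. The Fanconi proteins unhook crosslinks between the strands of DNA and pass the resulting break to the same machinery. Recombination works while a sister chromatid is present, in S and G2 phase, whereas end joining by Ku, DNA-PK and DNA ligase IV rejoins ends throughout the cell cycle. In T-cell progenitors end joining also seals the breaks made by the RAG recombinase at the antigen receptor genes. Mismatch repair corrects errors left by the replicating polymerases.

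Counts assigned to genes came to between 13716199 and 36364200 per library, and replicate 1 was the deeper library in both groups. The 12 T-cell progenitor markers were all above the filter and summed to between 5895 and 6371 CPM (counts scaled to library size and TMM factor) in the 4 libraries. Single markers changed in opposite directions upon washout, 7 upward and 5 downward. Their log2 fold changes ran from 2.37 for Ptcra to -1.67 for Gata3. Of 5 B cell markers, 2 had no count and the sum was below 1 CPM in every library. Of 4 erythroid markers 3 had no count. Myeloid markers had sums of 53.4 and 41.7 CPM under GSI against 13.1 and 12.8 CPM after washout, nearly all of it from Itgam and Cd68, while Lyz2 had no count. For stromal and endothelial markers the sums were 269 and 219 CPM under GSI against 95.1 and 101.0 CPM after washout, nearly all of it from Pecam1 and Pdgfrb. The part of these markers in the results below was not tested.

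Upon washout the recombination, Fanconi and damage signaling genes were higher and the end joining genes were divided. The median log2 fold change of the 39 genes was 0.84, beside -0.01 over the 12266 genes tested. In edgeR's quasi-likelihood test, adjusted by Benjamini-Hochberg over all genes tested, 31 of the 39 were higher at an adjusted p-value under 0.05, and 1, Lig4, was lower. Over all genes, 27.0% were higher and 25.4% were lower by this rule. The study's own thresholds, a log2 fold change above 1 or below -1 together with that p-value, were passed by 11 of the 39 upward and by 0 downward, beside 7.74% and 11.7% of all genes. For 36 of the 39 both washout libraries lay above both GSI libraries and for 2 both lay below, whereas 38.2% and 39.1% of all genes had libraries that did not overlap in these directions. In RNA from whole cultures, fewer cells of a kind and less RNA per cell cannot be told apart. How many genes passed both thresholds upward depended on the libraries and on the processing. The number changed with the GSI replicate left out. It was 6 with scaling by the total count alone and 14 with a correction for GC and length.

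**Figure D1:**
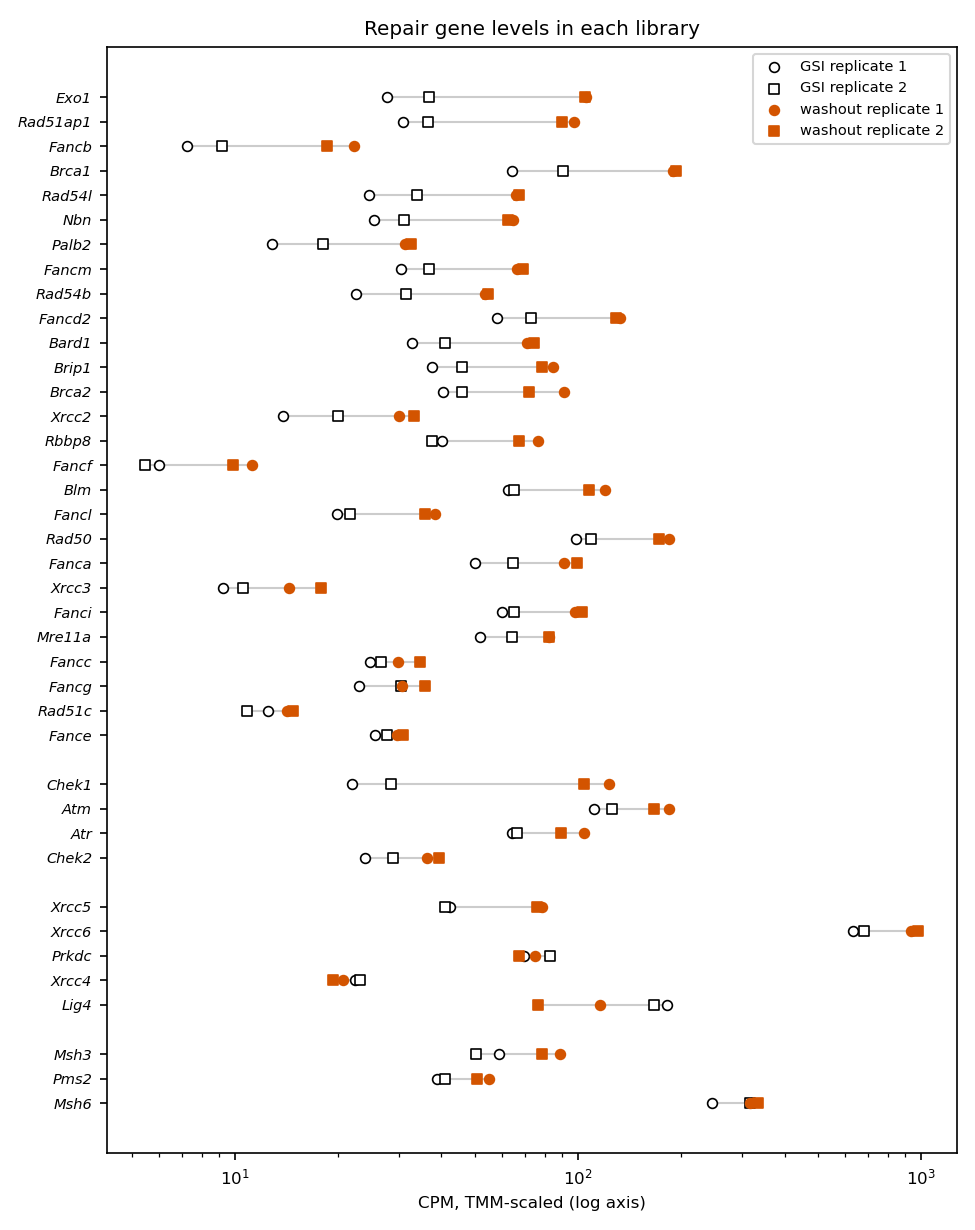
Levels of the 39 genes in each library, in CPM scaled by TMM factors on a log axis, grouped from top to bottom into recombination and Fanconi genes, signaling kinases, end joining and mismatch repair. Open symbols are GSI, filled symbols are washout, circles are replicate 1 and squares are replicate 2. The open and filled symbols of Chek1 and Exo1 lie far apart, while those of Prkdc overlap and those of Lig4 are in the opposite order.

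Recombination and Fanconi genes moved in one direction. All 27 had higher CPM in both washout libraries than in either GSI library, 23 rose by the adjusted p-value and 10 passed both thresholds. Their median log2 fold change was 0.92, and their summed level went from 913 and 1090 CPM in the GSI libraries to 1926 and 1891 CPM in the washout libraries.

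The largest rise of the class was that of Exo1, the exonuclease that lengthens the single-stranded end during resection and also acts in mismatch repair. Exo1 was measured at 27.8 and 36.9 CPM in the GSI libraries and at 105.9 and 104.9 CPM in the washout libraries. The log2 fold change was 1.71 (SE 0.147, edgeR adjusted p = 0.000462), with the washout libraries close to each other and far above both GSI libraries. Rad51ap1, whose product promotes invasion of the intact strand, was at 30.9 and 36.5 CPM in the GSI libraries and at 97.1 and 89.7 CPM in the washout libraries. It rose by 1.48 on the log2 scale (SE 0.117, edgeR adjusted p = 0.000421). Fancb encodes a subunit of the Fanconi core complex, the ubiquitin ligase of the pathway, and lies on the X chromosome. It was among the lowest members, with 7.25 and 9.18 CPM in the GSI libraries and 22.3 and 18.6 CPM in the washout libraries (log2 fold change 1.34, SE 0.184, edgeR adjusted p = 0.00185). Brca1, which promotes resection and brings PALB2 to the break, was at 64.4 and 90.5 CPM in the GSI libraries and at 188.6 and 192.9 CPM in the washout libraries. Its log2 fold change was 1.31 (SE 0.166, edgeR adjusted p = 0.00139), and the GSI libraries differed more from each other than the washout libraries did.

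The promoters of the last 3 are shown because they belong to the members of this class with the largest rise for which RefSeq (GRCm38.p6) gave a window, from 250 bases before the start of transcription to 50 bases after it. Each is written 5′ to 3′ along the strand of its gene. Capitals mark the CCAAT box, CCAAT or its reverse complement ATTGG, and the RBPJ hexamer, TGGGAA or its reverse complement TTCCCA. The windows are chr6:126939538-126939837 (minus strand) for Rad51ap1, chrX:164980342-164980641 (plus strand) for Fancb and chr11:101551906-101552205 (minus strand) for Brca1.
Rad51ap1: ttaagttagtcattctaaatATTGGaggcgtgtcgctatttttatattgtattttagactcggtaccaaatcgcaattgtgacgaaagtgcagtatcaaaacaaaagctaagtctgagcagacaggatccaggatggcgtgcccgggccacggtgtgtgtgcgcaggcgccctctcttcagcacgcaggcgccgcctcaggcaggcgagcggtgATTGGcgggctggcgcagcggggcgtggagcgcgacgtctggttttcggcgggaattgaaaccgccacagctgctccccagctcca
Fancb: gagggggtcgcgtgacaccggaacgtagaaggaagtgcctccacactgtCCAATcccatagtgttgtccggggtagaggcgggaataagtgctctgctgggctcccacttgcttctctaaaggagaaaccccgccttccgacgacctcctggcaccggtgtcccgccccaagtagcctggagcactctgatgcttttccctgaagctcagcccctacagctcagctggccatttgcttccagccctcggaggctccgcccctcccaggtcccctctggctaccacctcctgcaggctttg
Brca1: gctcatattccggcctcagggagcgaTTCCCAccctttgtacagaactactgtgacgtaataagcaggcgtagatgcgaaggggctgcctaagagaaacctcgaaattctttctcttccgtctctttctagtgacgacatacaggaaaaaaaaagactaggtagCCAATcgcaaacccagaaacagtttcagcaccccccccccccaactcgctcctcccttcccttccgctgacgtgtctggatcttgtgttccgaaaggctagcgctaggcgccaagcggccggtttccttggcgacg
Rad51ap1 held a pair of CCAAT boxes, Fancb had one, and Brca1 had a CCAAT box and an RBPJ hexamer. None of the 3 held the E2F octamer described further on.

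Genes of loading and strand exchange followed. Rad54l, a motor protein of strand exchange, was at 24.6 and 33.9 CPM in the GSI libraries and at 66.1 and 67.3 CPM in the washout libraries, a log2 fold change of 1.20 (SE 0.160, edgeR adjusted p = 0.00163). Its relative Rad54b rose to 53.6 and 54.7 CPM upon washout from 22.5 and 31.5 CPM in GSI (log2 fold change 1.01, SE 0.167, edgeR adjusted p = 0.00361). Palb2, the bridge between BRCA1 and BRCA2, was at 12.8 and 18.03 CPM in the GSI libraries and at 31.4 and 32.6 CPM in the washout libraries (log2 fold change 1.07, SE 0.178, edgeR adjusted p = 0.00378). For all 3 the washout libraries agreed closely while GSI replicate 2 stood above GSI replicate 1. Brca2, which acts in the loading step, rose by 0.93, and Bard1, the partner of BRCA1 in its ubiquitin ligase, rose by 0.98, both on the log2 scale and both short of the fold threshold. Among the other genes of strand exchange, Xrcc2 rose by 0.92 and Xrcc3 by 0.70, while Rad51c was at 12.5 and 10.8 CPM in the GSI libraries and 14.2 and 14.7 CPM in the washout libraries and did not pass the test (log2 fold change 0.30, edgeR adjusted p = 0.142).

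Resection genes were also higher. Nbn, the subunit of the MRE11 complex that recruits ATM, was at 25.4 and 31.1 CPM in the GSI libraries and at 64.6 and 62.4 CPM in the washout libraries, a log2 fold change of 1.18 (SE 0.126, edgeR adjusted p = 0.000825). The other subunits of that complex rose less, Rad50 by 0.78 and Mre11a, its nuclease, by 0.51 on the log2 scale. Whether the subunits differed from each other was not tested. Rbbp8, which starts resection together with this complex, rose by 0.89. Blm, the helicase that dissolves joined molecules, rose by 0.84, and Brip1, a helicase that binds BRCA1, rose by 0.97.

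The remaining Fanconi genes ranged from a change of about the fold threshold to none that passed the test. Fancm, which recognizes stalled forks and anchors the core complex, was at 30.5 and 36.7 CPM in the GSI libraries and at 66.4 and 69.1 CPM in the washout libraries, a log2 fold change of 1.02 (SE 0.121, edgeR adjusted p = 0.00113). Fancd2, the protein that the core complex marks with ubiquitin, was at 58.1 and 73.1 CPM in the GSI libraries and at 132.6 and 129.2 CPM in the washout libraries. Its log2 fold change was 1.002 (SE 0.128, edgeR adjusted p = 0.00142), just past the fold threshold. Its partner Fanci rose by 0.68. Among the genes of the core complex, Fancl, its ligase subunit, rose by 0.84, Fancf by 0.88 and Fanca by 0.74. Fancc, Fancg and Fance did not pass the test, with log2 fold changes of 0.33, 0.32 and 0.18 and edgeR adjusted p-values of 0.0663, 0.152 and 0.215. Fancc and Fance did pass with the correction for GC and length, at 0.57 and 0.56 (edgeR adjusted p = 0.00493 and 0.00375). Fance, with the smallest fold change of the 27, had 25.7 and 27.8 CPM in the GSI libraries and 29.7 and 30.9 CPM in the washout libraries.

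**Figure D2:**
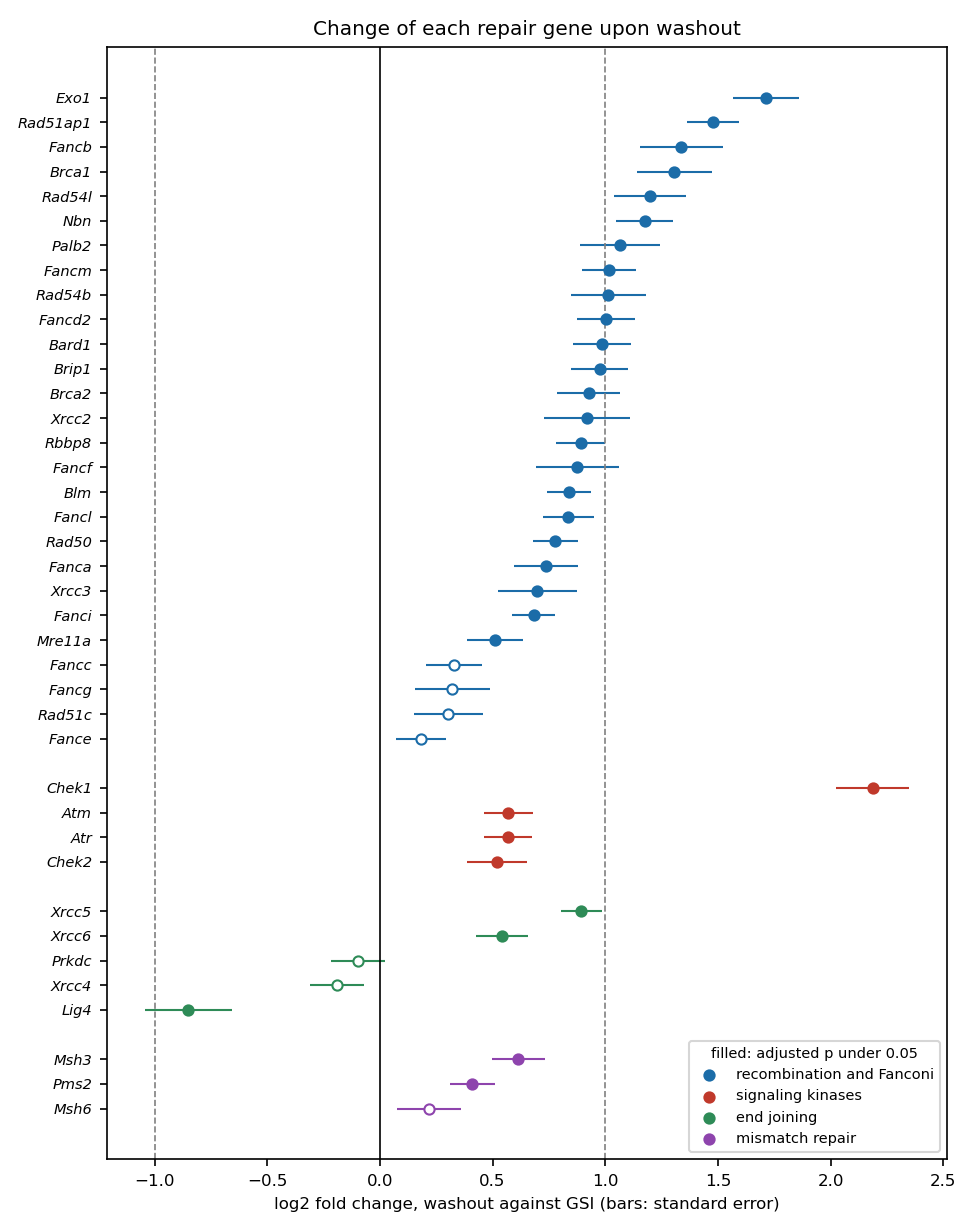
Log2 fold change of each of the 39 genes, washout against GSI, with bars of 1 standard error and dashed lines at the fold threshold of 1 in each direction. Filled points have an edgeR adjusted p-value under 0.05. All 27 recombination and Fanconi genes lie to the right of 0, from Fance at 0.18 to Exo1 at 1.71, while the 5 end joining genes lie on both sides.

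The 4 kinases were all higher by the test. Chek1, the kinase that ATR activates when replication forks stall, had the largest change of the 39 genes. It was measured at 21.9 and 28.6 CPM in the GSI libraries and at 123.5 and 104.1 CPM in the washout libraries, a log2 fold change of 2.19 (SE 0.160, edgeR adjusted p = 0.000347), or 4.55-fold. Chek1 lies on chromosome 9 (mm9, 36516067 to 36534650, minus strand). Its promoter, from the same source, covers chr9:36726609-36726908 of GRCm38.p6 on the minus strand and is shown as that of the member that changed most.
Chek1: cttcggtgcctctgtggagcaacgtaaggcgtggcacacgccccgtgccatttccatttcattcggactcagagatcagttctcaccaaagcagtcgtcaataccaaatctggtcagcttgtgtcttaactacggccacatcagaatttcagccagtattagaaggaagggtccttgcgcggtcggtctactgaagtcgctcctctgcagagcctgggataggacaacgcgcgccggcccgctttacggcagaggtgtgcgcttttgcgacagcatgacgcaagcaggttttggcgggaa
It has no capitals, because no complete match to the 4 motifs searched is in these 300 bases. The window ends in gcgggaa, which lacks only the last letter of GCGGGAAA, a spelling of the E2F octamer described further on. A match that crosses the edge of a window was not counted. Atm, the kinase activated by double-strand breaks, was at 111 and 125 CPM in the GSI libraries and at 184 and 166 CPM in the washout libraries, and rose by 0.57 on the log2 scale. Atr, activated by single-stranded DNA, was at 64.2 and 66.5 CPM in the GSI libraries and at 103.9 and 89.4 CPM in the washout libraries, and rose by the same amount. Chek2, the kinase downstream of ATM, had the smallest rise of the 4 at 0.52 (SE 0.133, edgeR adjusted p = 0.0184), from 23.9 and 29.0 CPM to 36.3 and 39.4 CPM. Its call was lost without GSI replicate 1 (edgeR adjusted p = 0.130), with the total count alone (0.0791) and with the correction for GC and length (0.0594), and that of Atm without GSI replicate 1 (0.0537). Each of the 4 was higher in both washout libraries than in either GSI library. The difference between Chek1 and the other 3 kinases was not tested. Per length of exon, Chek1 went from a mean of 5.44 to a mean of 24.5 RPKM (CPM per kilobase of exon), so that a transcript below Atm and Chek2 in GSI, at 11.4 and 11.8 RPKM, was above both upon washout, at 17.0 and 16.8 RPKM.

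End joining genes did not move together. Of the 5, 2 rose, 1 fell and 2 did not pass the test, with a median log2 fold change of -0.10. Both Ku subunits rose. Xrcc5, the larger one, was at 42.3 and 40.9 CPM in the GSI libraries and at 78.4 and 76.0 CPM in the washout libraries, a log2 fold change of 0.89 (SE 0.0911, edgeR adjusted p = 0.000718). Xrcc6, the smaller one, was at 634 and 683 CPM in the GSI libraries and at 937 and 982 CPM in the washout libraries, a log2 fold change of 0.54 (edgeR adjusted p = 0.00962), and was the most abundant of the 38 genes with a length, at means of 147 and 214 RPKM. Lig4, the ligase that closes the break, went the other way. Its level was 182.0 and 166.2 CPM in the GSI libraries and 115.9 and 76.5 CPM in the washout libraries, and it fell by 0.85 on the log2 scale (SE 0.193, edgeR adjusted p = 0.0119). The groups did not overlap, but the washout libraries differed from each other by more than the GSI libraries did, and the log2 fold change was -1.18 without washout replicate 1 and -0.57 without washout replicate 2. Lig4 is on chromosome 8 (mm9, 9970020 to 9977686, minus strand). Its partner Xrcc4 was at 22.4 and 23.2 CPM in the GSI libraries and at 20.7 and 19.3 CPM in the washout libraries (log2 fold change -0.19, edgeR adjusted p = 0.230). Prkdc, the catalytic subunit of DNA-PK, overlapped between the groups, with 69.5 and 83.1 CPM in the GSI libraries and 74.9 and 67.3 CPM in the washout libraries (log2 fold change -0.10, edgeR adjusted p = 0.534).

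Mismatch repair genes changed little, with a median log2 fold change of 0.41 over 3 genes, of which 2 rose. Msh3, which recognizes larger loops, was at 58.8 and 50.4 CPM in the GSI libraries and at 88.7 and 78.6 CPM in the washout libraries, a log2 fold change of 0.61 (SE 0.118, edgeR adjusted p = 0.00644). Pms2, a nuclease subunit, rose by 0.41 (edgeR adjusted p = 0.0158), a call that was lost under 4 of the 14 alternatives, among them leaving out either GSI library (edgeR adjusted p = 0.116 without replicate 1 and 0.0578 without replicate 2). Msh6, which recognizes single mismatches, was at 245 and 318 CPM in the GSI libraries and at 318 and 336 CPM in the washout libraries and did not pass the test (log2 fold change 0.22, edgeR adjusted p = 0.247). Its GSI replicate 2 was level with washout replicate 1.

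Within GSI, replicate 2 was the higher library for 33 of the 39 genes, beside 48.9% of all genes tested. Upon washout, replicate 2 was the higher one for 17 of the 39, beside 50.2%. S phase genes showed the same order, with 23 of 24 higher in GSI replicate 2 and 10 of 24 higher in washout replicate 2. The part of this difference between the GSI libraries in the rises was not tested.

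Other genes of the same pathways were counted in the same way. Of 32 other recombination and Fanconi genes, 22 rose and 4 fell by the adjusted p-value, 10 passed both thresholds upward and the median log2 fold change was 0.68. The single-strand binding proteins Rpa2 and Rpa1 rose by 1.48 and 1.19 on the log2 scale. Rmi2, of the BLM complex, rose by 1.44, Usp1, which removes ubiquitin from FANCD2, by 1.38, and the resection nuclease Dna2 by 1.35. Also past both thresholds were Fignl1 at 1.35, Brcc3 at 1.08, Mms22l at 1.04 and Eme1 at 1.03. Mus81, the nuclease partner of EME1, fell by 0.75, from 53.9 and 48.4 CPM to 29.6 and 31.5 CPM (edgeR adjusted p = 0.00227).

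Of 19 other damage signaling genes, 16 rose and 0 fell, with a median of 0.92 and 6 past both thresholds. Those 6 were Clspn (1.37), which brings CHEK1 to ATR, the fork proteins Tipin (1.28) and Timeless (1.24), the phosphatase Cdc25a (1.17), a target of CHEK1, Trp53 (1.14), which encodes p53, and Topbp1 (1.14), the activator of ATR. Trp53bp1, which favors end joining over resection, was the lowest at -0.13 (edgeR adjusted p = 0.283).

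Other end joining genes were divided as the 5 members were. Of 10, 9 were tested, 2 rose and 3 fell, and the 3 that fell also passed both thresholds. Dntt, the terminal transferase that adds bases at antigen receptor joins, was at 1479 and 1531 CPM in the GSI libraries and at 462 and 517 CPM in the washout libraries, and fell by 1.62 on the log2 scale (SE 0.127, edgeR adjusted p = 0.000403). Dclre1c, which encodes Artemis, the nuclease that opens the hairpin ends made by RAG, fell by 1.22, from 34.2 and 37.0 CPM to 17.1 and 13.0 CPM. Polm, a gap-filling polymerase of end joining, fell by 1.10, from 11.4 and 11.3 CPM to 5.465 and 5.06 CPM. In contrast, Polq, the polymerase of an end joining route that works without Ku, was at 28.1 and 41.3 CPM in GSI and rose by 1.12 to 70.1 and 79.4 CPM (edgeR adjusted p = 0.00391). Of the RAG genes themselves, Rag1 was at 1764 and 2368 CPM in the GSI libraries and at 2766 and 2555 CPM in the washout libraries (log2 fold change 0.37, edgeR adjusted p = 0.139), and Rag2 rose by 0.64 (edgeR adjusted p = 0.0297).

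Among 5 other mismatch repair genes, 3 rose and 0 fell, with a median log2 fold change of 0.57, and Msh5 was the lowest at -0.42 (edgeR adjusted p = 0.105). Excision repair genes had lower medians than the recombination genes. Of 18 nucleotide excision repair genes, 11 rose and 5 fell with a median of 0.36, from Ercc8 at 0.96 to Uvssa at -0.75. Of 19 base excision repair genes tested, 9 rose and 2 fell with a median of 0.38, from Ung at 2.05, which removes uracil from DNA, to Neil1 at -1.11.

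Cell cycle genes moved in the same libraries. All 24 S phase genes rose, 22 of them past both thresholds, with a median log2 fold change of 1.45, and their summed level went from 3319 and 4228 CPM in the GSI libraries to 9980 and 9873 CPM in the washout libraries. Of 19 G2/M genes, 18 rose and 0 passed both thresholds, with a median of 0.71, and their sum went from 4385 and 4595 CPM to 7016 and 6948 CPM. The median of the recombination and Fanconi genes, 0.92, lay between these medians. Targets of p53 went mostly the other way. Of 12 tested, 6 fell and 2 rose, with a median of -0.88 and a lowest log2 fold change of -2.87. Cdkn1a, the cell cycle inhibitor and not the lowest of the list, was at 118 and 124 CPM in the GSI libraries. It was at 22.2 and 18.5 CPM in the washout libraries (log2 fold change -2.56, SE 0.121, edgeR adjusted p = 0.000281). Mdm2, another target, was at -0.03 (edgeR adjusted p = 0.791), and Aen was the highest at 1.28. The part of these cell cycle and p53 target values in the rise of the repair genes was not tested.

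**Figure D3:**
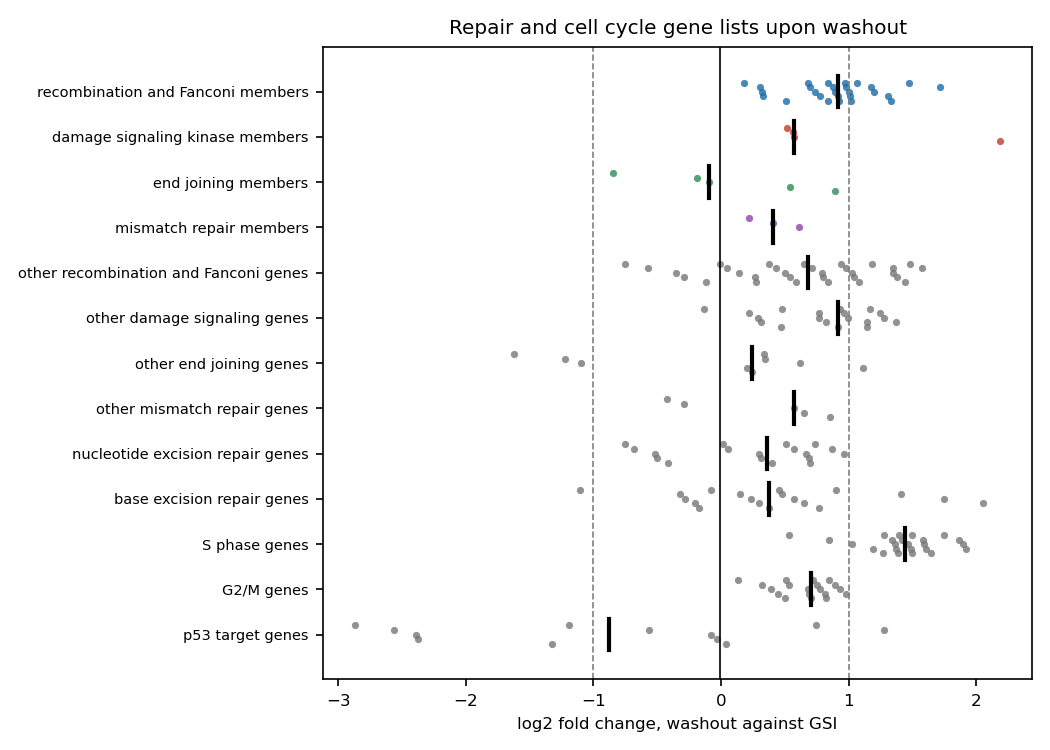
Log2 fold change, washout against GSI, of each tested gene (points) in the 4 classes of the 39 genes (colored) and in 9 other lists (grey), with the median of each list as a black bar, the median of all genes as a thin line and the fold threshold as dashed lines. S phase genes lie farthest to the right with a median of 1.45, and p53 target genes lie mostly to the left with a median of -0.88.

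Many repair genes start close to a gene on the other strand. The values of 14 such pairs, with starts within 1000 bases of each other, are compared here. Brca1 rose by 1.31 on the log2 scale, whereas Nbr1, which starts 194 bases away, fell from 210.0 and 219.0 CPM to 127.0 and 141.0 CPM (log2 fold change -0.68, edgeR adjusted p = 0.00237). Palb2 rose by 1.07, while Dctn5, 95 bases away, was at -0.04 (edgeR adjusted p = 0.796). Rad54l and Pomgnt1, 150 bases apart, were at 1.20 and 0.15, and Fancb and Mospd2, 217 bases apart, at 1.34 and 0.30. In these 4 pairs only the repair gene rose.

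Other pairs varied in direction and size. Prkdc was at -0.10, while the replication helicase gene Mcm4, 466 bases away, rose by 1.58 (edgeR adjusted p = 0.000537). Pms2 rose by 0.41 and Aimp2, 117 bases away, by 1.52. Rad51c was at 0.30 and Tex14, 111 bases away, fell by 1.53 (edgeR adjusted p = 0.0143), while Xrcc4 was at -0.19 and Tmem167, which overlaps it, rose by 0.68 (edgeR adjusted p = 0.0368). Lig4 and Abhd13, whose starts lie 21 bases apart, both fell, by 0.85 and 0.56. Atm rose by 0.57 while Npat, 307 bases away, was at 0.33 (edgeR adjusted p = 0.0559). Both genes rose in the pairs of Fancf with Gas2, at 0.88 and 0.72, and of Rad51ap1 with D6Wsu163e, at 1.48 and 0.36. Chek2 was at 0.52 and Hscb at -0.18 (edgeR adjusted p = 0.380), and Xrcc3 was at 0.70 and Zfyve21 at -0.11 (edgeR adjusted p = 0.636). The differences within pairs were not tested.

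**Figure D4:**
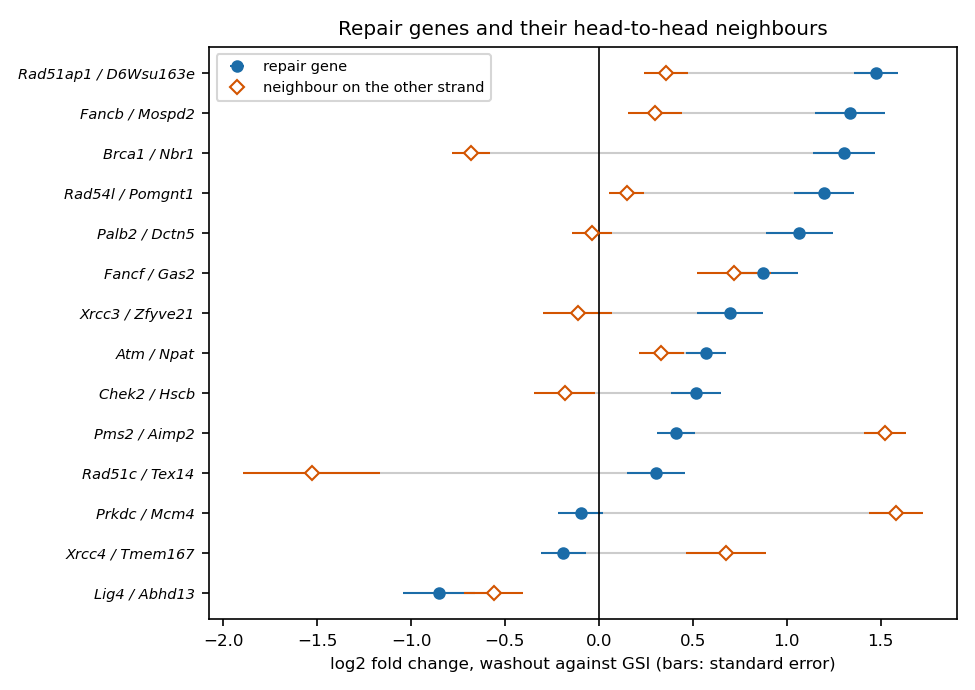
Log2 fold change, washout against GSI, of 14 repair genes (filled circles) and of the gene that starts within 1000 bases on the other strand (open diamonds), with bars of 1 standard error and a grey line joining each pair. The points of Brca1 and Nbr1 lie on opposite sides of 0, those of Prkdc and Mcm4 lie far apart with Mcm4 on the right, and those of Lig4 and Abhd13 are both on the left.

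Exons of some pairs overlap, and the sources used here name neither the strand nor the overlap rule used in counting. Values of Fancf with Gas2 and Xrcc4 with Tmem167 are uncertain for this reason. The same applies to Msh6, whose overlapping neighbor Fbxo11 fell by 0.80, to Fanci, whose neighbor Polg fell by 0.40, and to Msh3, Fanca, Fancc, Fancl, Rad54l, Xrcc3, Xrcc6, Atr, Fancd2 and Pms2.

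A set of 4 motifs was searched on both strands in the promoter windows, which RefSeq gave for 31 of the 39 genes. The E2F octamer, the site of the factors that switch on S phase genes, was spelled as TTT, then any 2 bases that are each C or G, then CGC. It was in 8 of the 31 windows (25.8%), beside 4.75% of the windows of tested genes and 2.61% of all windows. These stretches of 30 bases are shown because they hold all of its matches among the 39 genes, with the octamer in capitals, 5′ to 3′ along the strand of the gene.
Bard1: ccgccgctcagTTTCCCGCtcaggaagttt
Brca2: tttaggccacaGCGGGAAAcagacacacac
Chek2: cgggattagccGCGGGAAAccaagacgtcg
Fancg: tttcttttcagTTTCCCGCggaaccgtctc
Rad51c, first match: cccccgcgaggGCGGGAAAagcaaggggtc
Rad51c, second match: gtttccagcgcTTTCGCGCctcttgctcta
Msh3, first match: ttgccgtcaagTTTGGCGCgaaatcgcagc
Msh3, second match: cgtcaagtttgGCGCGAAAtcgcagccctg
Msh6: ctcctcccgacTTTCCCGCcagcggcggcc
Xrcc6: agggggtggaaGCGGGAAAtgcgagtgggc
The matches of Msh3 overlap each other on opposite strands. Those of Rad51c lie in separate windows, chr11:87404905-87405204 for the first and chr11:87404457-87404756 for the second. The shares given here count genes, and a gene with several windows counts once if any of them holds a match. The 8 genes had log2 fold changes between 0.22 and 0.98. Of these, 5 rose and 0 passed both thresholds. The 31 and 11 of all 39 members that did so include genes without a window. The windows of the members past both thresholds, where RefSeq gave one, held no complete match to this spelling. Exo1, Fancd2, Nbn and Rad54b, which also passed both thresholds, had no window. The edge of the Chek1 window cuts off the last letter of a possible match. Sites of E2F with other letters were not searched.

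The CCAAT box was in 20 of the 31 windows (64.5%), beside 43.1% of the windows of tested genes. Of its 20 genes, 17 rose and 6 passed both thresholds. Among members past both thresholds that had a window, only Chek1 lacked the box. The 31 and 11 of all 39 members are not a like baseline, because they include genes without a window. The CHR hexamer of genes active in G2/M, TTTGAA or TTCGAA, was in the windows of Atr and Bard1, which is 6.45% beside 16.3%. The RBPJ hexamer, the letters bound by the factor through which Notch acts, was in 6 windows (19.4%), beside 26.2%. Its 6 genes were Brca1, Brip1, Fancc, Fancm, Rad54l and Lig4, and their log2 fold changes ran from -0.85 to 1.31. Of these, 4 rose and 3 passed both thresholds. A match is a description of the letters and was not tested as a binding site.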

How the data were processed

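RNA-Seq was measured in 2 GSI and 2 washout libraries of Beko cells, grouped by their labels. The authors used trimGalore for trimming, HISAT2 2.2.1 for alignment to mm9, and counted reads per gene with summarizeOverlaps. The table as deposited holds raw counts, and every column was used. The submitters' processing notes also name DESeq2 1.24.0.

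Groups were tested with edgeR 4.0.16, run in R 4.3.3 (filterByExpr, TMM factors, estimateDisp and the two-sided quasi-likelihood test without covariates), with Benjamini-Hochberg adjustment over the 12266 genes tested. The biological coefficient of variation came to 0.121. Standard errors were derived from the log2 fold change and its F statistic. A floor of 3 counts corresponds to between 0.0881 and 0.223 CPM and covers counting error only. Positions, exon lengths and GC content come from GENCODE vM1 on mm9, which matched 20641 of the 24391 symbols and 38 of the 39 members, Rad54b being the exception. Promoter windows come from RefSeq on GRCm38.p6. Exo1, Fancd2, Nbn, Prkdc, Rad50, Rad54b, Rbbp8 and Xrcc2 were not matched there.

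The members and the gene lists were chosen with earlier results of these data known. Every member is named. Some other genes chosen by the rule are not reported here. CPM per library is given for members past both thresholds and for the highest and lowest member of each class. Of the other lists the counts and the median are given, with the highest and lowest genes of some lists. For the repair pathways, genes past both thresholds are also given. CPM of Atm, Atr, Rad51c, Xrcc4, Prkdc, Rag1 and Cdkn1a, and the overlapping and neighboring genes, were chosen after their values were seen. The E2F stretches were chosen after the motif search. The scripts were tested on simulated data.

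Alternatives were DESeq2 1.42.0, its size factors in edgeR, the total count alone, all genes with 1 count, only genes with 10 counts or more per library, a replicate block, thinning to the depth of the smallest library and a correction for GC and length (both also with that block), and leaving out each library, where the lone sample is assumed to vary like the others.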

Additional observations from a re-analysis of the deposited data

How the results depend on the processing

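Over the 39 genes and the alternatives, 509 of the fold changes kept their direction and their side of the adjusted p-value, 17 passed it only under the alternative, 14 lost it and 4 changed sign. With DESeq2 all 39 kept both. The calls that were lost belonged to Pms2 (under 4 alternatives), Chek2 and Xrcc3 (3 each), Mre11a (2), Atm and Xrcc6 (1 each), 6 of them without GSI replicate 1. Chek1, Exo1, Rad51ap1, Fancb and Brca1 passed both thresholds under each of the 14 alternatives, Fancd2 did so under 8 of them and Rad54b under 7 of the 12 it had values in.

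Scaling by the total count alone moved the median of all genes from -0.01 to -0.21 and the share of higher genes among those past both thresholds from 39.8% to 23.0%. It left 6 members past both thresholds upward and 1 downward, with 2 lower by the adjusted p-value. The class medians were then 0.72 for recombination and Fanconi genes, 0.37 for the kinases, -0.30 for end joining and 0.21 for mismatch repair, and Fance was at -0.017. These shifts follow the shift of all genes. Corrected for GC and length, the medians were 0.67 for the kinases, 0.11 for end joining and 0.56 for mismatch repair, and Prkdc was at 0.11. With that correction and the replicate block they were 0.67, 0.12 and 0.56, Prkdc was at 0.12 and 2 members were lower by the adjusted p-value. The median of all genes was 0.08 in both cases, beside -0.01 without the correction. The cause was not tested.

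Leaving out 1 library at a time gave 6 (without GSI replicate 1) to 15 (without GSI replicate 2) members past both thresholds upward and 0 to 1 downward, which was Lig4 at -1.18 without washout replicate 1. By the adjusted p-value 25 to 31 were higher and 1 was lower each time. The medians ranged from 0.82 to 1.03 for recombination and Fanconi genes, from 0.51 to 0.67 for the kinases, from -0.22 to 0.046 for end joining and from 0.36 to 0.48 for mismatch repair. Prkdc was at 0.046 without GSI replicate 2 and at -0.23 without GSI replicate 1.

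The deviations of same-numbered libraries from their group means correlated at 0.497, but the numbers are not stated to pair cultures. With the replicate block 11 members passed both thresholds and 34 were higher by the adjusted p-value, the 3 more being Fancc, Fancg and Msh6.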
